A study of Homo sapiens with 8 samples.

Results

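The 10 genes described here are 7 matrix metalloproteinases (MMP1, MMP2, MMP3, MMP9, MMP10, MMP13 and MMP14) and 3 tissue inhibitors of metalloproteinases (TIMP1, TIMP2 and TIMP3), among the 58828 genes counted in each of 8 RNA-seq libraries. They were chosen by symbol as a gene family, with the H2O2, PAGE4 and cell line results of the same 8 libraries already known, so their values are given as a description with counting error, and nothing is read from the calls they get in the fit across all genes. The libraries came from 22RV1 and DU145, 2 established prostate carcinoma lines. Cells of each line carried a lentiviral doxycycline-inducible vector, either empty (vector) or holding an HA-tagged PAGE4, a cancer-testis antigen of the prostate, and puromycin selection and doxycycline were common to all of them. Before collection they received PBS, or H2O2 as the source of reactive oxygen species, for 12 h. The labels and the methods give its dose as 200 mM, above the doses stated for other experiments of the study. The 8 groups were therefore 22RV1 vector PBS, 22RV1 vector H2O2, 22RV1 PAGE4 PBS, 22RV1 PAGE4 H2O2 and the same 4 in DU145, with 1 library each. Each construct in a line was a single selected culture, so a difference between cultures and an effect of PAGE4 cannot be told apart.

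Matrix metalloproteinases are zinc-dependent endopeptidases that are mostly secreted as inactive proenzymes and that cut collagens, other matrix proteins and cell surface proteins once the propeptide is removed. Collagenases open the triple helix of fibrillar collagen, stromelysins cut a wide range of matrix proteins and activate other proenzymes, gelatinases digest denatured collagen and basement membrane collagen, and membrane-type enzymes act at the cell surface. TIMPs bind the active site and block it. In prostate carcinoma these proteins are studied for their part in invasion and in the remodelling of bone and stroma, and transcription of several MMP genes is known to depend on AP-1, the dimer of FOS and JUN proteins.

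Of the 7 MMP genes, 6 had 5 reads or fewer in at least 1 library, so depth limits what can be said. Total counts per library ranged from 25482984 to 43310401. PAGE4 had 0 to 1 reads in the 4 vector libraries and 1001 to 1489 in the 4 PAGE4 libraries, as their labels say. KLK3, the prostate-specific antigen and a marker of 22RV1, had 142 to 1020 reads in 22RV1 and at most 1 in DU145. The summed level of 6 markers of DU145 was 339 to 445 CPM (counts scaled to a library total of 1e+06) in 22RV1 and 1594 to 1964 in DU145, where 4 of the 6 were higher and 2, CD44 and LGALS1, were lower than in 22RV1 by edgeR. Fibroblasts are a common source of MMP and TIMP mRNA in tissue, and the summed level of 6 fibroblast markers was 13.3 to 31.3 CPM in 22RV1 and 7.46 to 8.93 in DU145. Their defining genes DCN and COL1A2 had 0 to 17 and 1 to 8 reads in 22RV1, and 0 and 0 to 1 reads in DU145. Within 22RV1, the fibroblast sum was 13.3 and 14.6 with PBS and 24.8 and 31.3 with H2O2, with COL1A1 at 378 and 480 against 750 and 766 reads and DCN at 17 and 9 against 6 and 0. KLK3 fell with H2O2 in that line, from 1020 to 142 reads in vector and from 963 to 196 in PAGE4 cells (edgeR, log2 -2.21 ± 0.23 SE, adjusted p = 1.7e-06). The part of these shifts in the MMP and TIMP values was not tested.

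The promoters are shown first because AP-1 is a known regulator of several MMP genes. A part of AP-1 in the counts was not tested. RefSeq promoters (GRCh38.p14) were at hand for 4 of the 10 members, MMP10, MMP14, TIMP1 and TIMP3. The 100 bases that end just before each RefSeq transcription start are printed 5′ to 3′ on the strand of the gene. Capitals in these bases mark a match to an AP-1 site (TGANTCA) or to a TATA box (TATAAA). The printed bases lie at chr11:102780629-102780728 on the minus strand for MMP10. On the plus strand they lie at chr14:22836485-22836584 for MMP14, chrX:47582336-47582435 for TIMP1 and chr22:32801605-32801704 for TIMP3. GENCODE starts MMP14 at chr14:22836560 and TIMP1 at chrX:47582408, inside the printed bases.
MMP10: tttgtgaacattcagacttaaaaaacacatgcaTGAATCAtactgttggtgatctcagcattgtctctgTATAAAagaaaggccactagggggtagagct
MMP14: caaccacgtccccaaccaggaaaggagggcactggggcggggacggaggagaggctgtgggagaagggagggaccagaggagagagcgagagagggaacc
TIMP1: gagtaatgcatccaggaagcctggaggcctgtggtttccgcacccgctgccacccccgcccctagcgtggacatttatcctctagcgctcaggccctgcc
TIMP3: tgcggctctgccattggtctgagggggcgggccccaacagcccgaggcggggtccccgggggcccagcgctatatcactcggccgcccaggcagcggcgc

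MMP10 held TGAATCA at 67 to 61 bases and TATAAA at 31 to 26 bases before its start. The antioxidant response element, written as TGACNNNGC, was searched as well. In the 250 bases before the starts of MMP14, TIMP1 and TIMP3, neither strand held any of the 3 motifs. Of 27305 RefSeq promoters, 6.6% held the AP-1 motif on either strand in a window of that length, 11.1% held the TATA box and 11% held the antioxidant response element. A match is a string of letters and not evidence of binding. Variants of a site that differ from these strings were not searched, so no match does not mean no site. MMP7, a small secreted MMP of the same cluster, held TGAGTCA at the same distance of 67 to 61 bases. It had 0 to 1 reads in 7 of the 8 libraries, with 10 in DU145 vector H2O2. MMP20, also of that cluster, held TGAATCA at 112 to 106 bases and TATAAA at 72 to 67 bases. It had 0 to 5 reads in the 8 libraries.

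MMP10, MMP1, MMP3 and MMP13 lie in a cluster of 9 MMP genes on chromosome 11, all on the minus strand (GRCh38, GENCODE release 44). From one end to the other the order is MMP7, MMP20, MMP27, MMP8, MMP10, MMP1, MMP3, MMP12 and MMP13. MMP10 spans chr11:102770502-102780628, MMP1 chr11:102789401-102798160, MMP3 chr11:102835801-102843609 and MMP13 chr11:102942995-102955732. These 4 members together had 2 to 25 reads in the PBS libraries and 98 to 613 in the H2O2 libraries. In CPM, that was 0.231 without and 17.8 with H2O2 in the vector cells of 22RV1, 0.051 and 3.85 in its PAGE4 cells, 0.83 and 12.4 in the vector cells of DU145, and 0.27 and 9.28 in its PAGE4 cells. All 4 H2O2 libraries were above all 4 PBS libraries. The other 5 genes of the cluster stayed at 10 reads or fewer in each of the 8 libraries. In DU145 vector PBS, vector H2O2, PAGE4 PBS and PAGE4 H2O2, MMP8 had 0, 8, 0 and 8 reads. In the same order MMP7 had 0, 10, 1 and 0, MMP12 0, 6, 0 and 1, MMP20 0, 5, 0 and 2, and MMP27 0, 0, 0 and 5. Their few reads in DU145 thus lay almost all in the H2O2 libraries. In 22RV1 each of the 5 had 2 reads or fewer per library.

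**Figure D1:**
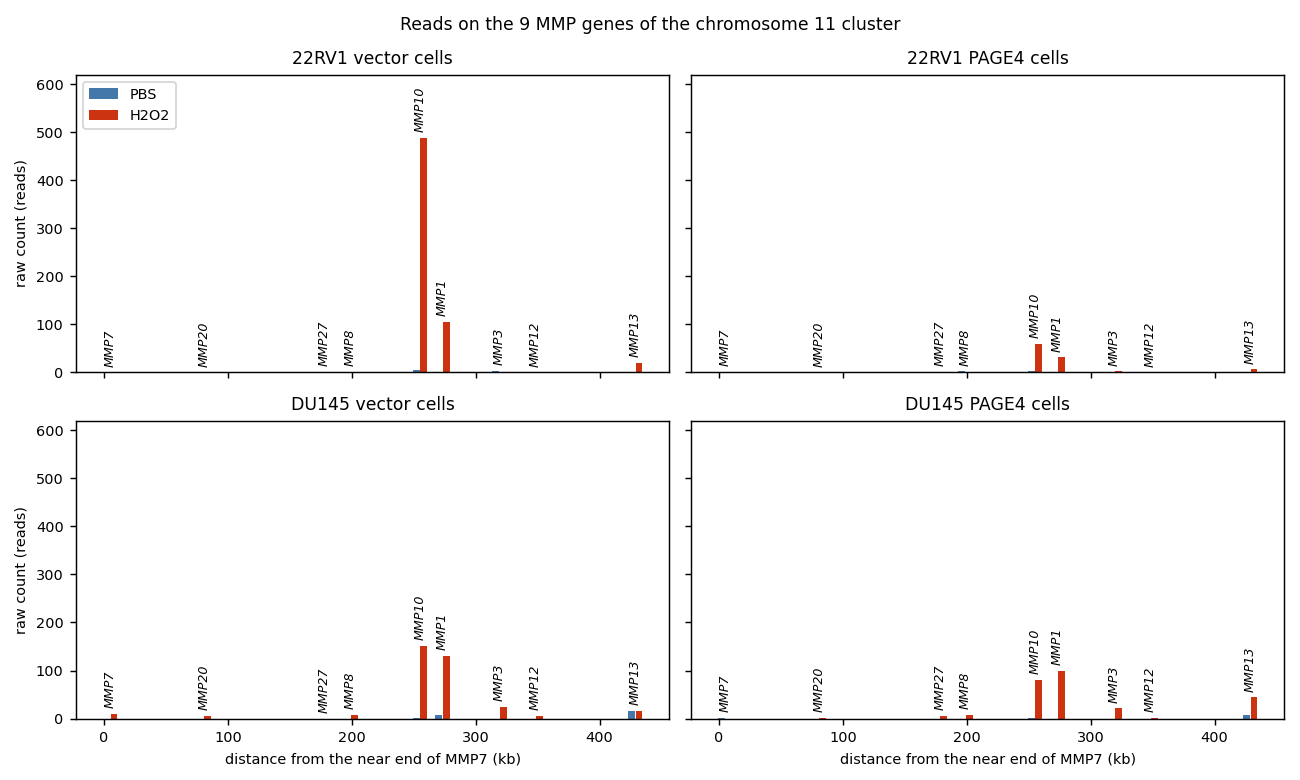
Raw counts (reads, linear axis from 0) of the 9 MMP genes of the chromosome 11 cluster, placed by their distance in kb from the near end of MMP7, in 4 panels for 22RV1 and DU145 cells with vector or PAGE4. Blue bars are PBS and red bars H2O2, 1 library each. Most reads lie on MMP10 and MMP1, above all in 22RV1 vector H2O2 with 488 and 105 reads, and MMP3 and MMP13 stand above the axis mainly in DU145.

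MMP10, a stromelysin that also activates other proenzymes, had the most reads of the 7 MMPs after H2O2 in 22RV1. Its raw counts in 22RV1 were 5 in vector PBS, 488 in vector H2O2, 2 in PAGE4 PBS and 59 in PAGE4 H2O2. In DU145 they were 2, 152, 1 and 81 in the same order. Each H2O2 library was far above each PBS library in both lines. After division by size factors of the line, the H2O2 to PBS ratio was 114-fold in 22RV1 vector cells (95% counting interval 48.6 to 353), 41.7-fold in 22RV1 PAGE4 cells (11 to 352), 85.9-fold in DU145 vector cells (23.4 to 716) and 90.8-fold in DU145 PAGE4 cells (15.8 to 3628). These 4 intervals overlap. They and all intervals given here cover counting error only, since no condition had a second library.

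MMP1, the interstitial collagenase, followed with fewer reads. It shares 223 exon bases with the pseudogene WTAPP1 on the opposite strand, which had 0 to 13 reads in the 8 libraries, and the strand setting of the counting is not given in the sources used here. MMP1 had 1, 105, 0 and 31 reads in the 4 libraries of 22RV1, ordered as for MMP10, and 7, 130, 0 and 99 in DU145. The ratio of H2O2 to PBS was 123-fold (21.6 to 4898) in 22RV1 vector cells and 21.0-fold (9.91 to 53.3) in DU145 vector cells. Where a PBS library had no read, the ratio was taken against a floor of 3 counts in that library, which put MMP1 with H2O2 at least 14.6-fold higher for PAGE4 cells of 22RV1 and at least 37.0-fold higher for those of DU145. These bounds take the H2O2 count as it was read. Genes that went from 0 reads with PBS to 5 or more with H2O2 numbered 451 in 22RV1 PAGE4 cells (0.767% of 58828) and 577 in DU145 PAGE4 cells (0.981%).

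MMP3, the other stromelysin of the cluster and a known activator of collagenase proenzymes, was seen with H2O2 in DU145 and hardly in 22RV1. DU145 had 0 reads in vector PBS, 25 in vector H2O2, 0 in PAGE4 PBS and 21 in PAGE4 H2O2. Against the floor of 3 counts in PBS, that was 9.42-fold and 7.84-fold higher with H2O2. These values take the H2O2 counts as read, without their counting error. In 22RV1 the counts were 3, 0, 0 and 2, at or under the floor in every library. MMP3 and MMP10 share a run of 96 identical bases in their transcripts, the longest between any member and another MMP or TIMP gene, and the read length is not given in the sources used here. The 22RV1 library with 488 reads of MMP10 had 0 reads of MMP3. In DU145, the libraries with 152 and 81 reads of MMP10 had 25 and 21 of MMP3. Whether reads of one gene were counted on the other was not tested.

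MMP13, a collagenase best known from cartilage and bone, had at most 44 reads in any library. In 22RV1 it had 1, 20, 0 and 6 reads, a ratio of 23.4-fold (3.74 to 970) with H2O2 in vector cells and at least 2.83-fold in PAGE4 cells, where the counting interval of 6 against 0 reads starts at 1.66-fold. In DU145 it had 16 reads in vector PBS, 16 in vector H2O2, 7 in PAGE4 PBS and 44 in PAGE4 H2O2. The H2O2 to PBS ratio in DU145 was therefore 1.13-fold (0.529 to 2.42) in vector cells and 7.04-fold (3.15 to 18.5) in PAGE4 cells. Both intervals cover counting error only, with 1 library per condition, and the difference between the arms was not tested.

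**Figure D2:**
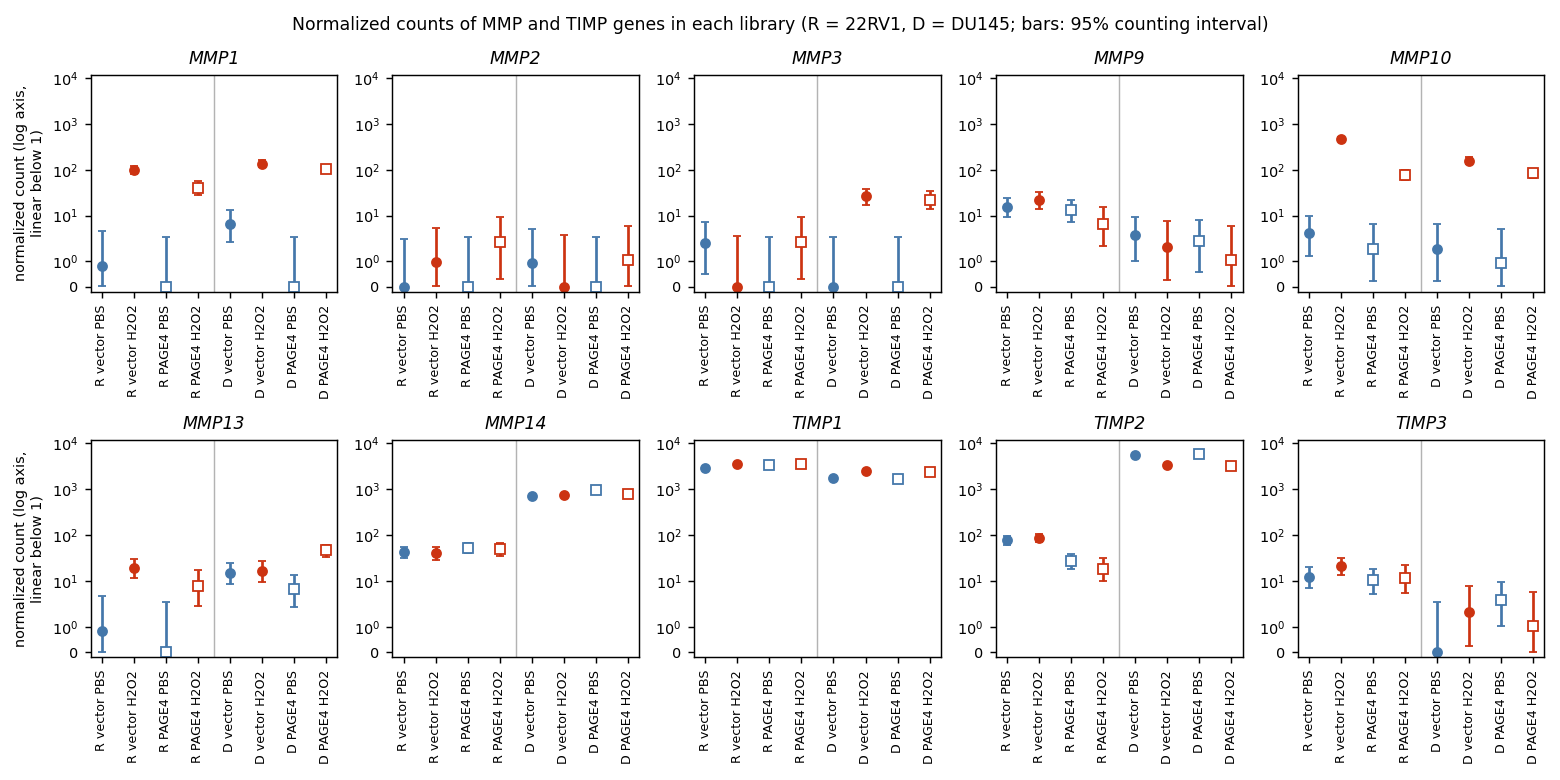
Normalized counts (size factors of each line, log axis that is linear below 1) of the 10 genes in the 8 libraries. R is 22RV1 and D is DU145, blue is PBS and red is H2O2, filled circles are vector and open squares PAGE4, and bars are 95% counting intervals. MMP10 rises from at most 4.12 with PBS to 77.6 to 471 with H2O2, while MMP14 and TIMP2 are set apart by the line.

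The gelatinases and the membrane-type enzyme did not share this pattern. MMP2 (chr16:55389700-55506691), the gelatinase that MMP14 and TIMP2 activate together at the cell surface, had 0 to 2 reads in each of the 8 libraries, which is under the floor of 3 counts. No difference in MMP2 was detectable at this depth. MMP9 (chr20:46008908-46016561), the other gelatinase, had 19, 23, 14 and 5 reads in 22RV1 and 4, 2, 3 and 1 in DU145. In 22RV1 the H2O2 to PBS ratio of MMP9 was 1.42-fold (0.738 to 2.75) in vector cells and 0.505-fold (0.142 to 1.48) in PAGE4 cells, both with 1 inside the interval. MMP9 shares 430 exon bases with SLC12A5-AS1 on the opposite strand, so reads of the pair cannot be told apart without strand.

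MMP14 (chr14:22836560-22849041), which anchors in the membrane and cleaves collagen and pro-MMP2, differed far more between the lines than with H2O2. 22RV1 had 52, 42, 57 and 38 reads and DU145 767, 715, 1043 and 760. All DU145 libraries lay above all 22RV1 libraries. The H2O2 to PBS ratio was 0.945-fold (0.614 to 1.45) and 0.942-fold (0.608 to 1.45) in 22RV1 vector and PAGE4 cells, and 1.05-fold (0.951 to 1.17) and 0.816-fold (0.743 to 0.897) in DU145 vector and PAGE4 cells.

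TIMP1 (chrX:47582408-47586789), a secreted inhibitor of most MMPs, was the most abundant of the 10 genes per length of exon in every library. Its normalized counts in 22RV1 were 2949 in vector PBS, 3604 in vector H2O2, 3334 in PAGE4 PBS and 3623 in PAGE4 H2O2. In DU145 they were 1736, 2566, 1663 and 2333. Both H2O2 libraries of a line were above both of its PBS libraries, by 1.22-fold (1.17 to 1.28) and 1.09-fold (1.03 to 1.14) in 22RV1 vector and PAGE4 cells and by 1.48-fold (1.39 to 1.57) and 1.40-fold (1.32 to 1.49) in DU145 vector and PAGE4 cells. TIMP1 lies within SYN1 on the opposite strand and shares no exon base with it.

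TIMP2 (chr17:78852977-78925387), which inhibits MMPs and bridges MMP14 to pro-MMP2, was lower with H2O2 in DU145. Raw counts in DU145 were 6104, 3187, 6128 and 3049. With H2O2 the normalized count was 0.59-fold that with PBS (0.565 to 0.616) in vector cells and 0.557-fold (0.534 to 0.582) in PAGE4 cells. In 22RV1 the counts were 93, 91, 29 and 14, and the ratios were 1.14-fold (0.848 to 1.55) and 0.682-fold (0.333 to 1.33). 22RV1 and DU145 did not overlap at all in TIMP2. TIMP2 shares 224 exon bases on its own strand with CEP295NL, which had 0 to 37 reads in the 8 libraries, and 367 with an unnamed lncRNA on the opposite strand.

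TIMP3 (chr22:32801705-32863041), the inhibitor that stays bound to the matrix, had 15, 22, 11 and 9 reads in 22RV1 and 0, 2, 4 and 1 in DU145. Its H2O2 to PBS ratios in 22RV1 were 1.72-fold (0.851 to 3.56) and 1.16-fold (0.424 to 3.07). In DU145, TIMP3 was near or under the floor in all 4 libraries.

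**Figure D3:**
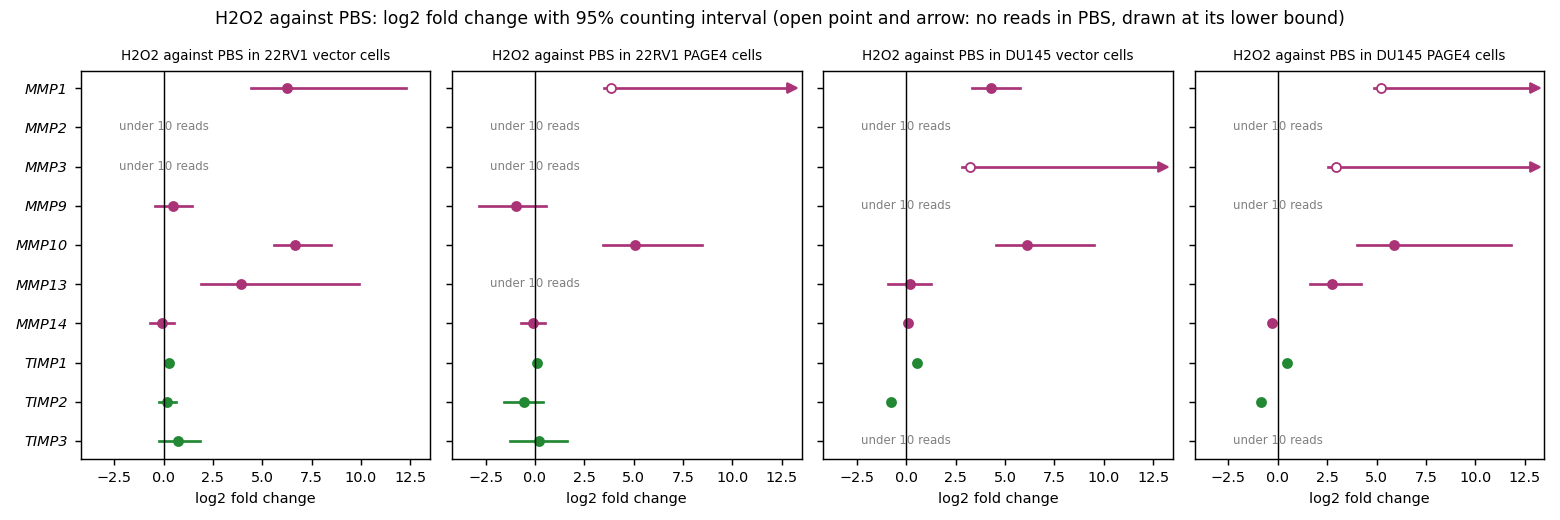
Log2 ratio of H2O2 to PBS (pseudocount 0.5) for each of the 10 genes in the 4 pairs of libraries, MMPs in purple and TIMPs in green, with 95% counting intervals as lines. Open points with an arrow had no read in PBS and sit at the bound against 3 counts, and genes under 10 reads in both libraries are not drawn. MMP10 and MMP1 lie to the right of 0 in all 4 pairs, MMP3 only has enough reads in DU145, and TIMP2 lies to the left of 0 in both DU145 pairs.

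Across all genes, the quasi-likelihood test of edgeR took its spread from what an additive model of PAGE4 and H2O2 in each line left over, with 2 residual degrees of freedom. Of the 10 genes, 9 passed its filter on low counts and MMP2 did not. With H2O2 in 22RV1, 27.7% of 22418 tested genes were called at an adjusted p under 0.05, and 3 of these 9 members were, MMP1, MMP10 and MMP13, all higher. With H2O2 in DU145, 36.7% of the tested genes were called, and 5 members were, with MMP1, MMP3, MMP10 and TIMP1 higher and TIMP2 lower. The fitted log2 change of MMP13 in 22RV1 was 4.61, from 20 and 6 reads against 1 and 0, and its call was lost without either vector library of 22RV1. With that line fitted alone, MMP13 was under the filter and not tested. The call of MMP3 in DU145 was lost when either H2O2 library of DU145 was left out. With DESeq2's Wald test both calls were lost. With DU145 fitted alone, 6 members were called, MMP13 being added as higher.

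The difference between the lines in the H2O2 effect was called for 16.3% of the tested genes and for 1 member, TIMP2, whose fitted log2 effect was 0.01 in 22RV1 and -0.85 in DU145. Without 22RV1 vector PBS or 22RV1 vector H2O2 the difference of TIMP2 went from -0.86 to -0.30 and -0.24 and was no longer called.

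In 22RV1, 5 members were lower in the PAGE4 cells than in the vector cells when H2O2 was present, and no member was higher by the fold rule of the study. That rule takes a fold over 1.5 between 2 single libraries, applied here to genes whose normalized count averaged at least 10 over a line, and 23.5% of the 20264 such genes of 22RV1 passed it in either direction. MMP10 had a normalized count of 471 in vector H2O2 and 77.6 in PAGE4 H2O2, 6.06-fold lower (log2 -2.59, interval -3.01 to -2.21). MMP1 had 101 and 40.8, 2.48-fold lower (log2 -1.30, -1.94 to -0.72). TIMP2 had 87.7 and 18.4, 4.76-fold lower (log2 -2.22, -3.18 to -1.43). MMP9 had 22.2 and 6.58, 3.37-fold lower with 23 against 5 reads (log2 -1.68, -3.50 to -0.33).

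The 5th, TIMP3, had 21.2 and 11.8 with an interval that holds 0 (log2 -0.81, -2.14 to 0.34). MMP13, under the minimum, had 20 and 6 reads (log2 -1.24, -2.89 to 0.08). MMP14 and TIMP1 were at 1.24-fold (0.775 to 1.96) and 1.01-fold (0.957 to 1.06). Genes with 5 or more reads in vector H2O2 and 0 in PAGE4 H2O2 numbered 957, and 282 showed the reverse.

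With PBS, TIMP2 was the only one of the 22RV1 members with at least 10 reads in a library whose interval lay below 0. Vector cells had 93 reads and PAGE4 cells 29, 2.84-fold lower (log2 -1.49, -2.16 to -0.89). MMP1, MMP3, MMP10 and MMP13 had 5 reads or fewer in both PBS libraries of 22RV1, so no PAGE4 difference was detectable for them. TIMP1 was 1.13-fold higher in PAGE4 cells (1.08 to 1.18), MMP14 1.24-fold (0.836 to 1.84), MMP9 0.833-fold (0.386 to 1.75) and TIMP3 0.829-fold (0.344 to 1.93).

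In DU145 with H2O2 the fold rule took 2 members, in opposite directions, where 15.5% of 18088 genes passed it. MMP10 had 160 in vector and 85.3 in PAGE4 cells, 1.87-fold lower (log2 -0.90, -1.31 to -0.50), a smaller fold than in 22RV1. Over PBS and H2O2 together, its PAGE4 effect was not called as different between the lines (edgeR, difference 1.55, adjusted p = 0.19). MMP13 had 16.8 and 46.3, 2.76-fold higher (log2 1.44, 0.61 to 2.39). MMP1 had 136 and 104 (log2 -0.39, -0.78 to 0.00), and MMP3 26.2 and 22.1 (log2 -0.24, -1.16 to 0.65). TIMP2 had 3344 and 3212, a ratio of 0.96 (0.914 to 1.01), against the 4.76-fold lower value in 22RV1. With PBS, MMP13 had 14.8 in vector and 6.58 in PAGE4 cells, the other direction, with an interval that holds 0 (log2 -1.12, -2.70 to 0.19). MMP14 was 1.38-fold higher in the PAGE4 cells with PBS (1.25 to 1.51). MMP1 went from 7 reads to 0 there, 0.434-fold when the floor of 3 counts takes the place of 0. That value takes the 7 reads as read, without their counting error.

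**Figure D4:**
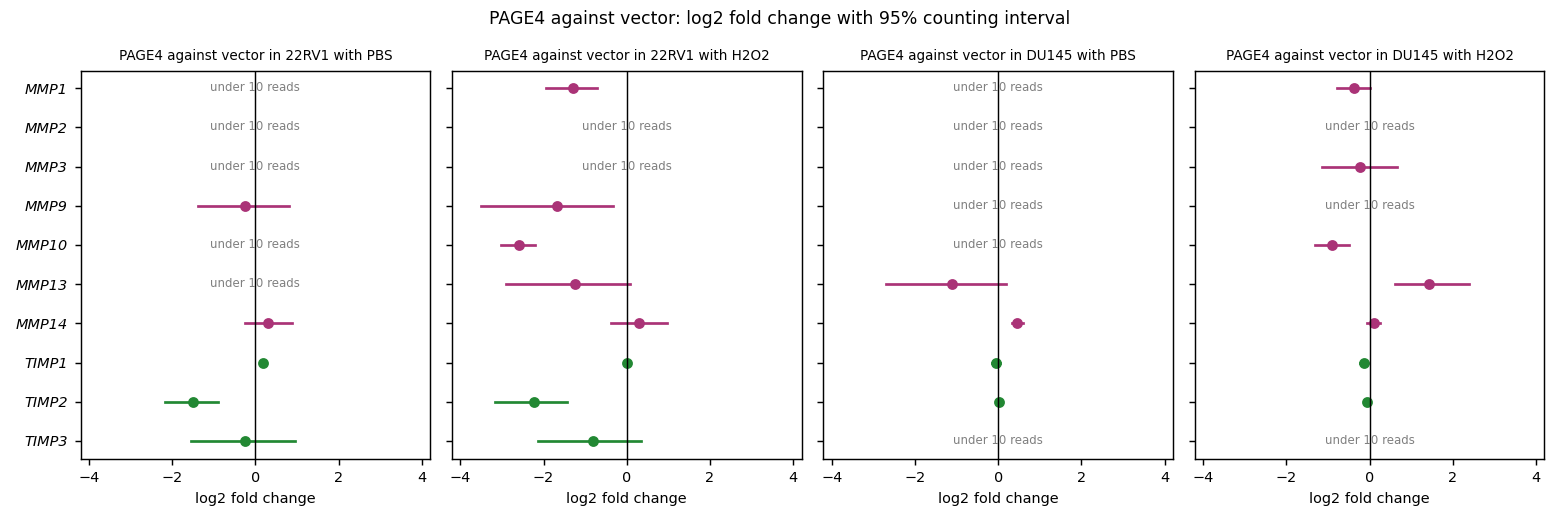
Log2 ratio of PAGE4 to vector (pseudocount 0.5) for each of the 10 genes in 22RV1 and DU145 with PBS or H2O2, MMPs in purple and TIMPs in green, with 95% counting intervals as lines. Genes under 10 reads in both libraries are not drawn. In 22RV1 with H2O2, MMP1, MMP9, MMP10 and TIMP2 lie below 0 with their whole interval, while in DU145 TIMP2 lies near 0 with PBS and H2O2, and MMP13 above 0 with H2O2 and below 0 with PBS, where its interval holds 0.

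With all 8 libraries in one fit, PAGE4 against vector was called for 4.28% of the tested genes in 22RV1 and for 2 members, MMP10 and TIMP2, both lower. The fitted log2 change of MMP10 was -2.47 and fell out of the calls without 22RV1 vector H2O2 (-1.09) or 22RV1 PAGE4 H2O2 (-1.10), as the PBS libraries hold 5 and 2 reads. That of TIMP2 was -1.81, and it was -2.25 to -1.51 when 1 library of 22RV1 was left out. Those fits take their spread from DU145 alone, so they do not measure variation within 22RV1. In DU145, 0.17% of the tested genes were called, 38 in all, and 0 members with either edgeR or DESeq2. At an unadjusted p under 0.05 edgeR had 1685 of the 22418 genes there and 1 member, MMP10. The difference between the lines in the PAGE4 effect was called for 1.84% of the tested genes and for 1 member, TIMP2, with a difference of 1.78. The vector and PAGE4 cultures of 22RV1 also differed in genes used as line markers, of which 4 of 6 from the DU145 list were called. EGFR, singled out after its values were seen, had 8937, 4782, 1829 and 1163 reads in 22RV1 vector PBS, vector H2O2, PAGE4 PBS and PAGE4 H2O2, and FOLH1, singled out likewise, had 5363, 2494, 1976 and 1196. The part of such culture differences in the TIMP2 and MMP10 values was not tested.

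Levels can be compared between genes only per length, so RPKM values were used, with counts scaled by the library total and by the merged exon length. TIMP1 was highest in all 8 libraries, at 57.1 to 75.2 RPKM in 22RV1 and 41.4 to 64.7 in DU145. In DU145 it was followed by TIMP2, at 32.7 and 33.4 with PBS and 19.6 and 18.6 with H2O2, and then by MMP14 at 5.51 to 7.63. In 22RV1, TIMP2 was at 0.0885 to 0.426 RPKM and MMP14 at 0.26 to 0.323. MMP10 reached 8.07 RPKM in 22RV1 vector H2O2, 1.32 in 22RV1 PAGE4 H2O2, 3.31 in DU145 vector H2O2 and 1.74 in DU145 PAGE4 H2O2, from at most 0.0656 with PBS. That made it the second of the 10 genes in both H2O2 libraries of 22RV1, and the fourth in both H2O2 libraries of DU145, behind TIMP1, TIMP2 and MMP14. MMP1 came next after MMP10 in all 4 H2O2 libraries, at 0.444 to 1.82 RPKM, and MMP3, MMP9, MMP13, TIMP3 and MMP2 were at 0.589 or less in all libraries.

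Summed over the members, the 3 TIMPs were at 57.6 to 75.7 RPKM in 22RV1 and 74.8 to 84.4 in DU145. The 7 MMPs summed to 0.567 in 22RV1 vector PBS and 9.95 in vector H2O2, and to 0.496 and 2.31 in the PAGE4 cells. In DU145 they summed to 5.88 and 11.8 in vector cells and 7.77 and 10.4 in PAGE4 cells, most of it MMP14 with PBS. The TIMP sum was 102 times the MMP sum in 22RV1 vector PBS and 7.62 times in vector H2O2, 128 and 32.4 times in 22RV1 PAGE4 cells, 12.9 and 7.15 times in DU145 vector cells, and 9.62 and 7.38 times in DU145 PAGE4 cells. These ratios hold for the 10 members only, as the MMP sum leaves out other MMP genes with more mRNA. In 22RV1 vector PBS and vector H2O2, MMP15 was at 16.4 and 14.7 RPKM and MMP24 at 7.08 and 7.46. In DU145 vector PBS and vector H2O2 they were at 19.7 and 17.1, and at 9.31 and 2.83. All of the ratios are of mRNA and say nothing of active enzyme.

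**Figure D5:**
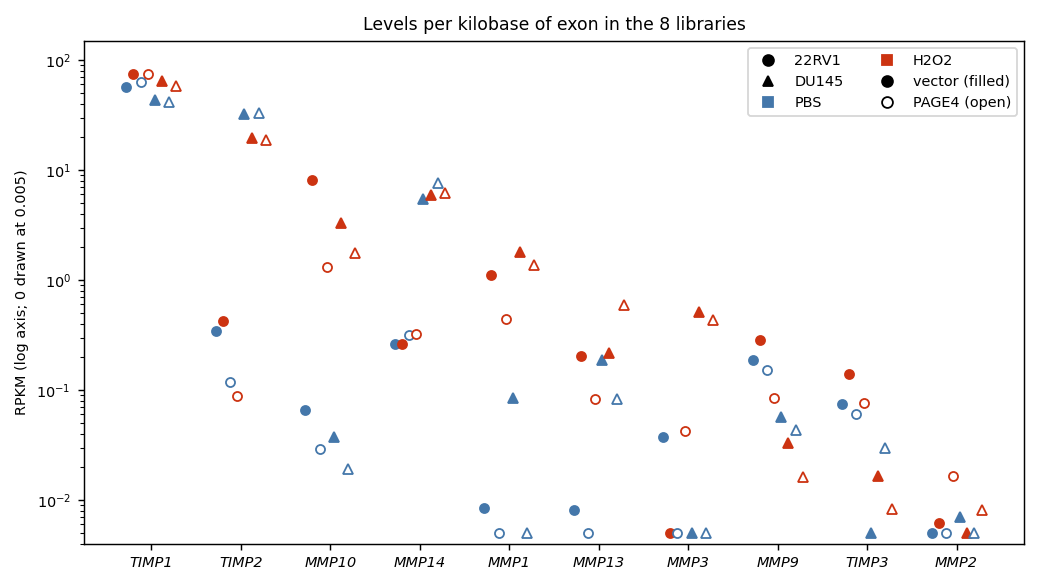
RPKM (log axis, 0 drawn at 0.005) of the 10 genes in the 8 libraries, ordered by their highest value, with circles for 22RV1, triangles for DU145, blue for PBS, red for H2O2, filled for vector and open for PAGE4. TIMP1 lies between 41.4 and 75.2 throughout, TIMP2 and MMP14 separate the lines, and MMP10 and MMP1 separate PBS from H2O2.

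DU145 and 22RV1 differed in 73.8% of the tested genes and in 7 of the 9 tested members. MMP1, MMP13, MMP14 and TIMP2 were higher in DU145, and MMP9, TIMP1 and TIMP3 were higher in 22RV1. Averaged over the 4 conditions, the fitted log2 difference was 7.14 for TIMP2, 4.64 for MMP14 and -0.20 for TIMP1. TIMP2 and MMP14 were higher in DU145 in each of the 4 matched conditions, whereas the difference of MMP1 was 2.29 and turned to -0.13 without DU145 vector PBS or DU145 PAGE4 H2O2. Without either of the same 2 libraries the calls of MMP1, MMP9, TIMP1 and TIMP3 were lost. That of MMP9 was also lost in 4 of the other 6 fits without 1 library, and with DESeq2 those of MMP9 and TIMP3 were. In the bulk RNA of a culture, fewer cells with a transcript and less RNA per cell cannot be told apart.

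Other genes that act with these proteins were followed in 5 lists. Their calls stand beside those of all tested genes, 27.7% for H2O2 in 22RV1 and 36.7% in DU145. For PAGE4 these shares were 4.28% and 0.17%. Whether a list held more calls than these shares was not tested. Of 16 other MMP genes, 8 were tested, and with H2O2 0 of these were called in 22RV1 with edgeR or DESeq2, and 1, MMP25, had an unadjusted edgeR p under 0.05. In DU145, 5 of the 8 were called. MMP24, a membrane-type MMP, fell from 1226 to 324 reads in vector cells and from 1101 to 272 in PAGE4 cells (log2 -1.84 ± 0.13 SE, adjusted p = 8.6e-09). MMP25, a membrane-type enzyme of leukocytes, rose from 33 to 147 and from 32 to 129 reads (log2 2.20 ± 0.35, adjusted p = 7.5e-05). MMP15 (log2 -0.43 ± 0.11, adjusted p = 0.0045) and MMP17 (-0.47 ± 0.15, adjusted p = 0.018), both membrane-type, fell less. The call of MMP15 was lost without either DU145 PAGE4 library, and that of MMP17 when any 1 DU145 library was left out or with DESeq2. The fifth, MMP11, was lower too. The H2O2 effect on MMP24 differed between the lines by -1.90 ± 0.17 (adjusted p = 8.1e-07), with 1342, 1123, 1309 and 1037 reads in the 22RV1 libraries. With PAGE4, 0 of the 8 were called in either line by edgeR or DESeq2, with 2 at an unadjusted edgeR p under 0.05 in 22RV1 and 0 in DU145. MMP16, also membrane-type, had 539 to 1196 reads in 22RV1 and 1 to 2 in DU145.

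Of 5 further inhibitors and surface partners, 4 were tested, and in DU145 3 of these fell with H2O2. LRP1, the receptor that clears MMP and TIMP complexes, went from 6372 to 1385 reads in vector and from 4769 to 1150 in PAGE4 cells (log2 -2.00 ± 0.11, adjusted p = 6.2e-10). RECK, a membrane-anchored MMP inhibitor, had 526, 200, 446 and 232 reads (log2 -1.04 ± 0.19, adjusted p = 0.00026). A2M, a plasma inhibitor that traps proteinases, had 45, 4, 11 and 1 reads (log2 -3.30 ± 0.67, adjusted p = 8e-04), and its call was lost without either DU145 vector library. With H2O2 in 22RV1, 0 of the 4 were called by edgeR or DESeq2, with A2M and RECK at an unadjusted edgeR p under 0.05. The H2O2 effects of LRP1 and RECK differed between the lines by -1.86 ± 0.16 and -1.58 ± 0.27 (adjusted p = 4.9e-07 and 0.00067). With PAGE4 in 22RV1, A2M and LRP1 were higher by 1.87 ± 0.43 and 0.50 ± 0.12 (adjusted p = 0.017 and 0.023). The call of A2M was lost without either H2O2 library of 22RV1, and that of LRP1 without either PBS library or with 22RV1 fitted alone.

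Among 6 activating proteinases, of which 5 were tested, 2 rose with H2O2 in 22RV1 and 1 in DU145. FURIN, which cleaves pro-MMP14 in the secretory pathway, rose by 0.77 ± 0.09 in 22RV1 (adjusted p = 3.9e-06), with 4689, 6336, 2847 and 3769 reads. PCSK5, of the same convertase family, had only 5, 19, 8 and 25 reads there (log2 2.11 ± 0.54, adjusted p = 0.0071), and its call was lost without either PAGE4 library. PLAU, the urokinase that starts the plasmin cascade, had 1529, 2498, 2410 and 3482 reads in DU145, a rise of 0.74 ± 0.11 with H2O2 (adjusted p = 4.2e-05), and 1 to 4 reads in 22RV1. It was the 1 gene of the list called with PAGE4 in DU145 (0.57 ± 0.11, adjusted p = 0.049), a call lost when any 1 library of DU145 was left out. With PAGE4 in 22RV1, FURIN was lower by -0.43 ± 0.09 (adjusted p = 0.0064), lost without either PBS library.

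Of 7 ADAM and ADAMTS proteinases, 6 were tested, and 2 were called with H2O2 in 22RV1 and 3 in DU145. ADAM17, the sheddase that releases TNF and EGFR ligands, rose by 0.76 ± 0.10 in 22RV1 (adjusted p = 2.2e-05) and by 0.29 ± 0.10 in DU145 (adjusted p = 0.028), the latter lost when any 1 DU145 library was left out. ADAM15 fell by 0.48 and 0.44 on the log2 scale, and ADAM10, a related sheddase, fell by 0.71 in DU145, from 4957 to 2504 and from 4166 to 2601 reads. With PAGE4 in 22RV1, ADAMTS1, a secreted proteoglycan-cleaving enzyme, was lower by -0.97 ± 0.16 (adjusted p = 0.0011), with 1226, 1288, 617 and 440 reads.

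Of 14 transcription factors with known sites in MMP promoters, 12 rose with H2O2 in 22RV1 and 11 in DU145, and none was called lower. The median log2 change of the 14 was 1.5 in 22RV1 and 0.61 in DU145, against -0.0017 and -0.033 over all tested genes. FOSL1, an AP-1 subunit, had 30, 1265, 13 and 169 reads in 22RV1 (log2 5.24 ± 0.22, adjusted p = 4.9e-11) and 2703, 11131, 3847 and 12022 in DU145 (1.97 ± 0.11, adjusted p = 1.1e-09). JUN, its usual partner, had 643, 4067, 1108 and 4480 reads in DU145 (2.45 ± 0.15, adjusted p = 2.4e-09). ATF3, a stress-induced relative of these factors, rose by 2.06 ± 0.13 and 1.88 ± 0.13 (adjusted p = 2.6e-09 and 9.2e-09). ETS2 and FOSL2 rose in 22RV1 by 1.98 ± 0.12 and 1.65 ± 0.14 (adjusted p = 3.3e-09 and 1.1e-07), and ETS1, which has neighbouring sites in MMP promoters, rose in DU145 by 1.83 ± 0.13 (adjusted p = 3.4e-08). SP1 and RUNX2 were called in neither line, and FOSL2 was not called in DU145 (-0.27 ± 0.12, adjusted p = 0.10).

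With PAGE4 in 22RV1, 5 of the 14 factors were lower, and with PAGE4 in DU145 0 were called with edgeR or DESeq2, with 3 (FOSL1, JUN and JUND) at an unadjusted edgeR p under 0.05. FOSL1 was lower by -2.31 ± 0.19 (adjusted p = 5.3e-07), FOS by -0.98 ± 0.20 (0.0064), FOSB by -1.37 ± 0.31 (0.016) and ETS1 by -5.39 ± 1.34 (0.030), and FOSL2 was lower too. Reads of FOS in 22RV1 were 354, 2296, 240 and 621, and those of FOSB 162, 1754, 130 and 271. ETS1 had 15 reads in vector H2O2 and 0 in the other 3 libraries of 22RV1. The difference in these 4 genes lay mostly between the H2O2 libraries. Each of the 4 calls was lost without 22RV1 vector H2O2 or 22RV1 PAGE4 H2O2, with FOSL1 at -1.03 in both cases. A link between these factors and the MMP values was not tested. The calls of FOSB and ETS1 were also lost with DESeq2. The PAGE4 effect on FOSL1 differed between the lines by 2.62 ± 0.22 (adjusted p = 2.1e-06), a call lost without either of the same 2 libraries and with DESeq2. These lists were drawn up with results of these libraries known, so they are no independent evidence of a direction.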

How the data were processed

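RNA-seq of 2 cell lines gave 1 library for each of 8 conditions. Alignment by the authors was to GRCh38 (HISAT2 2.1.0), and they deposited raw counts per gene from featureCounts 1.6.0, without normalization. The annotation, the strand setting and the read length are not given in the sources used here. Columns were assigned to samples by name. For all genes a quasi-likelihood fit (edgeR 4.0.16, R 4.3.3) used TMM factors, filterByExpr, a term for the line, terms for PAGE4 and H2O2 in each line, and Benjamini-Hochberg adjustment over 22418 genes. The edgeR step was tested on simulated data. Single libraries were compared by counts over DESeq2 1.42.0 size factors of the line, with Clopper-Pearson (ratio) or Poisson intervals at 95% and a floor of 3 counts per library. RPKM used merged GENCODE release 44 exons and total counts.

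The members and lists were chosen with earlier results of these data known. Named are all 10 members, PAGE4, and of each list up to 4 genes per contrast with the smallest adjusted p under 0.05, besides genes named to close a count. Alternatives were size factors, total counts, no filter, DESeq2's Wald test, each library left out, each line alone, 1 H2O2 effect for both lines, another count minimum, fold or pseudocount, and the longest transcript as length. No protein sequence was analysed here. Some marker genes of 22RV1 are not reported here.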

Additional observations from a re-analysis of the deposited data

Results flagged for a closer look

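The effects listed here differed between DU145 and 22RV1 by the edgeR test of the difference itself (Benjamini-Hochberg adjusted p under 0.05). Values are log2 effects in DU145 minus those in 22RV1, with 2 cultures per line and no second library. For the H2O2 effect, the differences were -3.27 for FOSL1, -1.92 for FOSL2, -1.40 for ETS2 and 1.11 for JUN among the transcription factors. They were -1.86 for LRP1 and -1.58 for RECK among inhibitors and partners, -0.78 for FURIN and -2.06 for PCSK5 among activating proteinases, -0.77 for ADAM10 and -0.47 for ADAM17 among the ADAM genes, and -1.90 for MMP24 and -0.86 for TIMP2 in the MMP and TIMP families. For the PAGE4 effect, the differences were 2.62 for FOSL1, -3.86 for A2M, -0.85 for LRP1 and 1.78 for TIMP2. TIMP2 was among the genes chosen with these contrasts known, so its values are a description. Leaving out single libraries ended the calls of ADAM17, PCSK5 and TIMP2 for H2O2 and of A2M, LRP1 and FOSL1 for PAGE4, and DESeq2's Wald test ended those of ADAM17 and JUN for H2O2 and FOSL1 for PAGE4.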

How the results depend on the processing

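No paired analysis was possible because the labels give no replicate numbers to block on, and the PAGE4 term of the fit already sets H2O2 against PBS within each culture. With 1 library left out, the number of genes called ranged from 3717 to 6163 for H2O2 in 22RV1, from 5152 to 9258 for H2O2 in DU145, from 775 to 1562 for PAGE4 in 22RV1, from 18 to 390 for PAGE4 in DU145, from 15362 to 16346 between the lines, from 2071 to 4215 for the difference in H2O2 effect and from 250 to 1251 for the difference in PAGE4 effect. Such fits hold 1 residual degree of freedom fewer, and a gene whose arm is reduced to 1 library is assumed to vary like the others. PAGE4 in 22RV1 gave 630 genes with DESeq2's Wald test against 960. PAGE4 in DU145 gave 62 with DESeq2-style size factors, 63 with total counts, 217 with no filter and 428 with that line alone against 38, and the difference in PAGE4 effect gave 806 with no filter against 413. By the fold rule with H2O2, 22RV1 gave 16603 genes with no count minimum, 1779 with a mean of at least 50 and 2209 with a fold over 2, against 4754. DU145 gave 14519, 610 and 1216 in the same order, against 2803. The cause of these shifts was not tested beyond the changed number of genes or libraries. Total counts moved the split of H2O2 calls in 22RV1 from 2864 higher and 3346 lower to 4239 higher and 2341 lower, with a shift of the median of all genes from -0.0017 to 0.116, and added TIMP1 to the members called higher. BSG between the lines turned to -0.083 with total counts, and MMP1 between the lines ranged from -0.131 to 2.88 with 1 library left out, turning to -0.127 without DU145 vector PBS and -0.131 without DU145 PAGE4 H2O2. Of the ratios of 2 libraries given for the members, 238 of 240 values under other scalings or a pseudocount of 1 stayed within their counting interval. Where a count of 0 left an interval without a bound, no move past that side could show. The 2 that moved were TIMP1 with H2O2 in 22RV1 with total counts, at log2 0.396 in vector and 0.243 in PAGE4 cells. Counts under about 10 reads limit every ratio built on them. These were MMP2, MMP1, MMP3 and MMP10 in PBS, and MMP13 in PBS except DU145 vector PBS (16 reads). MMP3 was also under 10 in all of 22RV1, MMP9 and TIMP3 in all of DU145, and MMP9, MMP13 and TIMP3 in 22RV1 PAGE4 H2O2.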
